A study of Homo sapiens with 12 samples.

Results

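EdU-HU-seq was used to map where DNA synthesis starts early in S phase in U2OS cells, a human osteosarcoma line, that carry MycER, and the regions called after CDK12 silencing are described here as they stood without and with MycER activation. MycER couples MYC to the ligand-binding domain of the oestrogen receptor, so that 4-hydroxytamoxifen (OHT) switches it on. All regions on the 22 autosomes in the list of shCDK12 cells (4799) and in the list of shCDK12 cells with OHT (4676) were taken, 9475 of the 18185 regions in the 4 lists of the study. The pair with CDK12 intact, shNT without and with OHT (8352 autosomal regions), served only as the comparison.

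All cells had received doxycycline (1 µg/mL) to induce an shRNA, either non-targeting (shNT) or against CDK12, so the controls carried an induced shRNA too. No transcript or protein was measured in these lists, so the level of CDK12 could not be checked in them. OHT was given at 300 nM for 40 h. Every culture, with or without OHT, was then held in nocodazole (100 ng/mL, 8 h) and released into EdU (25 µM) with hydroxyurea (2 mM) for 24 h. The labels name 3 replicates per condition, but each condition was available as 1 merged list, so no value below has a replicate error and no difference was tested. Intervals of shares and medians treat the regions or gaps of a list as independent, though they share libraries. Intervals of single density ratios cover the counting of reads only, with reads that PCR copied counted as if they were separate molecules.

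Hydroxyurea empties the pool of deoxynucleotides, so forks that leave the first origins stall soon after, and the thymidine analogue EdU marks the DNA made near those origins. Early origins lie mostly in open, gene-rich chromatin and late replication covers gene-poor stretches. MYC is a transcription factor that drives cells into S phase, and CDK12 is a kinase of RNA polymerase II that keeps elongation going over long genes, many of them for DNA repair.

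The list with OHT held 28573223 reads in its autosomal regions and the list without held 13220717, a ratio of 2.16. It covered 546.5 Mb against 452.1 Mb. The lowest score that the region caller had kept was 136.7 with OHT and 66.1 without, so the list with more reads was also the one with the higher floor. Between the shNT lists the reads inside regions differed more (2.90-fold) and the covered length less (1.10-fold against 1.21-fold), and the lowest score went the other way, from 145.5 without to 99.9 with OHT. The part of read depth in the results below was not tested.

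Sequence inside regions was mainly added with OHT and little was lost. Of the list with OHT, 113.2 Mb (20.7%) lay outside every region of the list without OHT, while 18.8 Mb (4.16%) of the list without OHT lay outside every region of the other. The added sequence came from 3 sources. Flanks of regions matched 1 to 1 held 49.3 Mb (43.5%), regions present only with OHT held 37.8 Mb (33.4%), and regions that joined or divided others held 26.2 Mb (23.1%). The added sequence of the shNT pair was 63.5 Mb, of which 50.4% was in regions present only with OHT and 36.5% in flanks.

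Most of the sequence added in silenced cells was outside the regions of cells with intact CDK12. Of the 113.2 Mb, 19.2% was covered in shNT, 33.7% in shNT with OHT and 63.5% (71.9 Mb) in neither. For the 433.3 Mb that both silenced lists held, 4.99% was in neither shNT list. That sequence had to be called in both silenced lists and the added sequence only with OHT, so these shares are not of like sequence. Of the 63.5 Mb added with OHT in the shNT pair, 19.4% was in neither silenced list, and 77.6% was covered in the silenced list with OHT. The 18.8 Mb lost with OHT in silenced cells went the other way, with 64.2% covered in shNT and 25.5% in neither shNT list.

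Matched regions were wider with OHT more often than narrower. A region of one list that overlapped exactly 1 region of the other, which overlapped no further region, was taken as matched, and 3140 pairs met this (65.4% of the list without OHT and 67.2% of the list with OHT). Of these, 2145 (68.3%, 95% Wilson interval 66.7 to 69.9) were wider with OHT, 845 (26.9%) were narrower and 150 had the same width. The median width was 56.0 kb without and 70.4 kb with OHT. The median of the log2 width ratio was 0.11 (95% interval 0.10 to 0.13), and the median region was 5.20 kb wider. With CDK12 intact, 47.8% of 3103 matched regions were wider and 46.6% narrower. The difference between the pairs could not be tested with 1 list per condition.

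Both borders took part about equally. A shift is given as positive when the border lay further from the centre of the region with OHT. The left border lay further out in 1856 regions (59.1%) and further in in 988 (31.5%), with a median of 1.60 kb. The right border lay further out in 1815 (57.8%) and further in in 1015 (32.3%), with a median of 1.20 kb. The lists are written in steps of 400 bp, so these medians are 3 or 4 steps. The long tail was on the outward side: the 95th percentile was 36.4 kb on the left and 37.2 kb on the right, and the 5th percentile -7.20 and -8.00 kb. Outward shifts summed to 25.0 Mb on the left and 24.2 Mb on the right, and inward shifts to 4.30 and 4.63 Mb. Both medians were 0 in the shNT pair, where 44.4% of left and 43.8% of right borders lay further out and 45.1% and 45.6% further in, and outward shifts summed to 11.1 and 12.0 Mb.

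**Figure D1:**
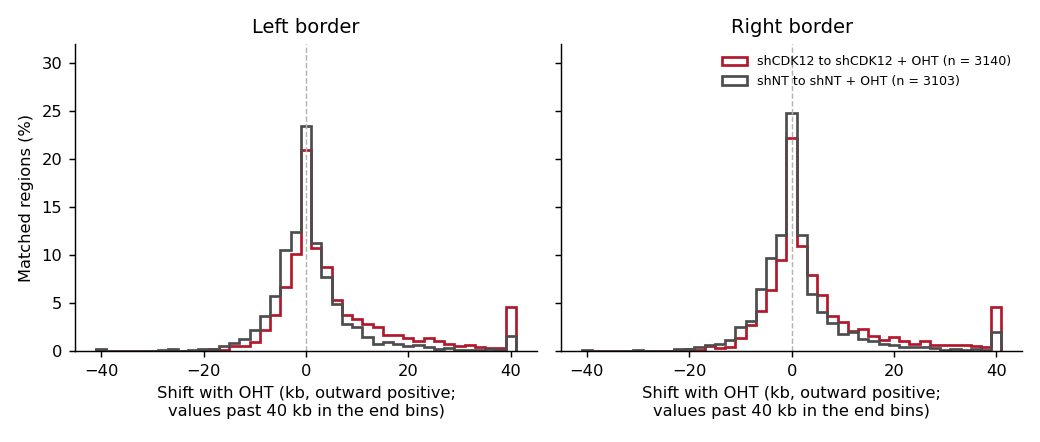
Shift of the left and right border of matched regions with OHT, in kb with outward positive, as the percentage of matched regions per 2 kb bin, for CDK12-silenced cells (red, n = 3140) and shNT cells (grey, n = 3103). The red curves lie above the grey ones over most of the outward side, and their medians are 1.60 kb on the left and 1.20 kb on the right.

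The shifts of the left and right border of a region were only weakly related. Both lay further out in 1170 regions (37.3%), only the left in 686 and only the right in 645, both further in in 366 and neither had moved in 115. An outward shift of at least 10 kb was found on the left of 719 regions and on the right of 678, on either side of 1199 (38.2%), and on both sides of 198 (6.31%). Across the 3140 regions the left shift correlated with the right one with Pearson's r = 0.07 and Spearman's rho = 0.09, as a description over regions that share libraries. Such a shift on either side was found in 603 regions (19.4%) of the shNT pair. Inward shifts of at least 10 kb were rare in silenced cells, with 83 (2.64%) on the left and 92 (2.93%) on the right. The shNT pair had 163 (5.25%) and 166 (5.35%).

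The regions whose left border moved furthest were longer almost on that side alone. The region chr7:101754801-101989200 (hg19 throughout) held 234.4 kb without OHT and 470.0 kb with it, with the left border 235.6 kb further out and the right border at the same position. Its reads went from 5788 to 23794. The shNT lists had 2 regions there in each case, which began at chr7 positions 101734401 and 101565201 without and with OHT, so the added stretch was partly covered with intact CDK12 and OHT too. The region chr2:46360801-46783600 gained 213.2 kb on the left and lost 3.6 kb on the right, and in shNT cells regions began at position 46147201 already without OHT. Here the silenced list without OHT was the one that lacked the stretch.

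The next on the left was not matched in shNT cells by a region of like length. The region chr4:83703201-83742400 was 39.2 kb without OHT and 220.8 kb with it, a shift of 177.6 kb on the left, while the shNT regions there measured 53.2 and 54.0 kb. Its normalised density, reads per bp over the median of matched regions, was 1.36 without and 0.75 with OHT. The region chr5:138520401-138632400 went from 112.0 to 283.2 kb, with 173.2 kb added on the left. Untreated shNT cells had 1 region of 118.0 kb there, and shNT cells with OHT had 2 that began at position 138442401 and covered 163.2 kb, so part of that flank was covered with intact CDK12 and OHT too.

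On the right, the region chr16:84178001-84276400 gained 153.6 kb and went from 98.4 to 288.4 kb. In shNT cells the covered length there went from 119.6 to 196.4 kb and its right end from position 84295200 to 84412000, so the regions with intact CDK12 and OHT reached into that stretch too. The region chr3:185830001-185863200 went from 33.2 kb and 360 reads to 184.0 kb and 4943 reads, with 146.4 kb added on the right, and no region overlapped it in either shNT list. The region chr2:70772001-70888800 gained 62.4 kb on the left and 143.6 kb on the right, one of the few to move far on both sides. The shNT regions there ended at positions 70882400 and 70949600 and covered 138.8 and 201.2 kb. The region chr12:112529201-112652800 gained 143.6 kb on the right, and its shNT counterpart was 121.2 kb without and 137.6 kb with OHT.

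Losses of width were smaller than gains. The largest was at chr17:39198401-39290000, which went from 91.6 to 19.2 kb, with the left border 48.8 kb and the right border 23.6 kb further in. In shNT cells the regions there measured 104.4 and 91.6 kb. The next were chr4:170809201-170918800 (109.6 to 45.6 kb), chr21:36479201-36650400 (171.2 to 112.4 kb) and chr5:167110801-167200400 (89.6 to 45.2 kb). Both shNT lists held 1 or 2 regions at each of the 4 places.

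Weak regions were wider with OHT more often than strong ones. Matched regions were split into 4 equal groups by score without OHT. In the group with the lowest scores 84.6% of 785 were wider, with a median gain of 12.4 kb, and in the group with the highest 55.2% were wider, with a median gain of 1.60 kb. Because that score came from the list being compared, regions were also ranked by their density in shNT cells without OHT, a list that had no part in the comparison. Among 2268 regions with 1 counterpart there, 82.0% of the sparsest group were wider (median log2 ratio 0.32, interval 0.25 to 0.36), then 74.6% (0.12), 62.6% (0.06) and 45.5% (0.00) in the densest group. The shNT pair, ranked in the same way by the density in shCDK12 without OHT, had medians from -0.02 to 0.04 in the 4 groups.

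**Figure D2:**
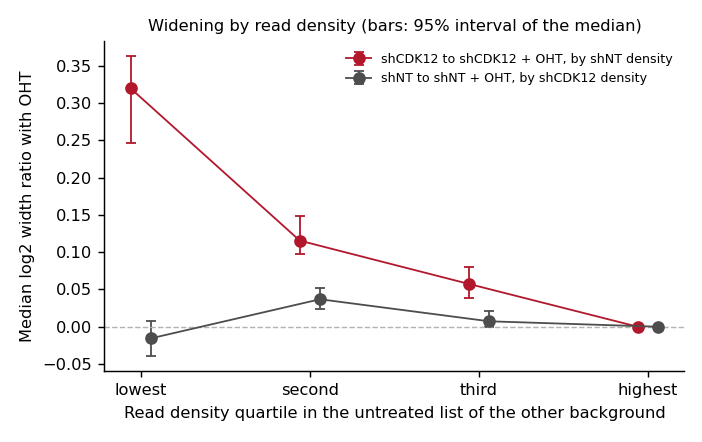
Median log2 width ratio with OHT, with the 95% interval of the median, in 4 equal groups of matched regions ranked by read density in the untreated list of the other background, for silenced cells (red) and shNT cells (grey). The red points go from 0.32 in the sparsest group to 0.00 in the densest, and the grey points lie between -0.02 and 0.04.

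By width without OHT, which came from the list being compared, narrower regions were wider with OHT more often above 10 kb. Regions of 10 to 30 kb were wider in 82.8% of 477 cases, with a median log2 ratio of 0.51. The share was 72.4% at 30 to 60 kb, 67.9% at 60 to 120 kb and 61.0% above 120 kb. Regions of up to 2 kb stood apart, with 20 of 84 (23.8%) wider and a median ratio of 0.00. Ranked by width in untreated shNT cells instead, that order was not kept: 58.0%, 71.1%, 72.0% and 63.7% were wider from the narrowest to the widest group, with median log2 ratios of 0.08, 0.16, 0.10 and 0.03. Where a wide gap of over 250 kb lay beside the border, 63.8% of left and 62.7% of right borders lay further out. Beside a gap of up to 10 kb the shares were 34.0% and 23.2%, but regions whose short gap had closed were no longer matched 1 to 1 and are counted below.

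The same regions could be followed in all 4 lists in 2143 cases. Their median width was 62.0 kb in shCDK12 and 74.0 kb in shCDK12 with OHT, against 67.6 kb in shNT and 68.4 kb in shNT with OHT. The silenced regions without OHT were thus the narrowest of the 4 sets and those with OHT the widest. With OHT, 66.2% were wider in silenced cells and 45.3% in shNT cells. Of the 2143, 733 were wider in both pairs, 686 only in silenced cells, 238 only in shNT cells and 486 in neither. The log2 width ratios of the pairs, which share no sample, correlated across regions with r = 0.07 and rho = 0.17.

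Neighbouring regions were found fused with OHT more often than divided. In the list with OHT, 563 regions (12.0% of it) overlapped at least 2 regions of the list without OHT, with 449 joining 2, 81 joining 3 and 33 joining 4 or more. They took in 1274 regions, 26.5% of the list without OHT. The reverse, a region divided with OHT, was found 157 times (3.27%). With CDK12 intact 254 regions (5.58%) joined others and 135 (3.56%) were divided.

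The gaps between neighbours showed the same on a common scale. Of 4777 gaps between autosomal regions without OHT, 720 (15.1%) lay inside 1 region with OHT. Closed gaps had a median of 7.80 kb and summed to 13.6 Mb, while gaps that stayed had a median of 118.0 kb. The shortest gap in each of the 4 lists was 4400 bp. Of the 720 closed gaps 392 (54.4%) were at most 10 kb long, against 189 of 286 (66.1%) in the shNT pair, so many fusions bridged a gap not far above that minimum. Of gaps of up to 10 kb 66.4% closed (interval 62.5 to 70.1), of gaps of 10 to 25 kb 30.1%, of 25 to 50 kb 18.4%, of 50 to 100 kb 6.14% and of 100 to 250 kb 1.44%. No gap of the 1319 above 250 kb closed (upper end of the interval 0.29%). The longest closed gap measured 160.4 kb. Of the 3774 gaps of the shNT pair 7.58% closed, 55.8% of those of up to 10 kb and 6.22% of those of 25 to 50 kb. Of the 4654 gaps of the silenced list with OHT, 169 (3.63%) lay inside 1 region without OHT.

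**Figure D3:**
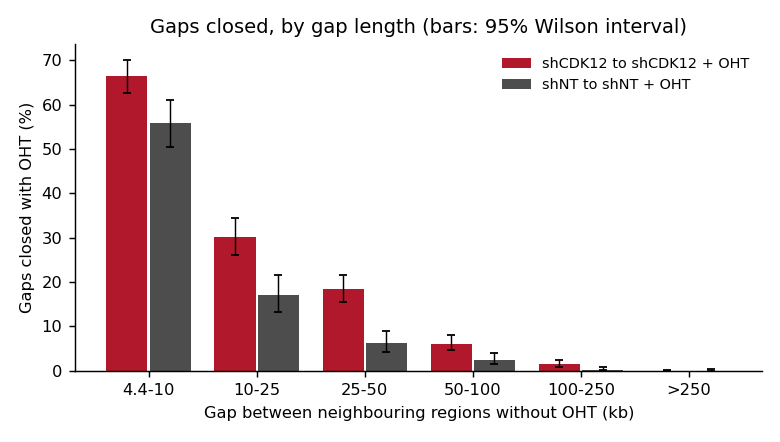
Percentage of gaps between neighbouring regions without OHT that lay inside 1 region with OHT, by gap length in kb, with 95% Wilson intervals, for silenced cells (red) and shNT cells (grey). The red bar is higher in each class up to 250 kb, 66.4% against 55.8% in the shortest, and no gap over 250 kb closed in either.

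Gaps that closed were often absent in shNT cells. Of the 720 closed gaps, 275 (38.2%) lay inside 1 region of untreated shNT cells, against 170 (4.19%) of the gaps that stayed. Short gaps make up more of the closed set, so the classes are given too: the shares were 55.1% of closed and 41.9% of kept gaps at up to 10 kb, 31.0% and 17.3% at 10 to 25 kb, and 10.7% and 4.98% at 25 to 50 kb. For shNT with OHT the share of closed gaps was 53.2%.

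The regions that joined the most others were long. The region chr20:42942801-43522400 (579.6 kb) with OHT joined 6 regions of 37.2 to 182.4 kb that summed to 491.6 kb, and its reads went from 12773 to 26043. The region chr22:45732401-47176000 (1443.6 kb) joined 5 regions of 22.8 to 476.8 kb. In untreated shNT cells the same stretch held 5 regions and with OHT 4, so it stayed in pieces with intact CDK12. The regions chr3:183732401-184537200 (804.8 kb) and chr4:40164401-40962000 (797.6 kb) joined 5 each. On chromosome 3 both shNT lists had 2 regions there, and on chromosome 4 the shNT list with OHT had 6 that together covered 446.4 kb.

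Divisions were fewer. The region chr19:50635601-51621200 (985.6 kb) overlapped 4 regions with OHT, of 31.2 to 635.6 kb, that together covered 976.8 kb, so nearly all of its length was kept. The regions chr16:29610801-30200000, chr2:27060801-27611200 and chr12:6624801-7107600 overlapped 3 each. On chromosomes 2 and 12 the 3 pieces reached past the original region and covered 1180.8 and 965.2 kb.

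Read density differed little between regions once the overall level was removed. Median density in matched regions was 17.9 reads per kb without OHT and 35.7 with it, 2.00-fold, and the raw density was higher with OHT in 3101 of 3140 regions. Each density was divided by the median of its list. The log2 ratio of these normalised densities then ran from -0.45 at the 5th to 0.38 at the 95th percentile, with a standard deviation of 0.38 over all regions and 0.24 over the 2966 regions at least 10 kb wide in both lists. The median counting error of 1 ratio was 0.06, so most of this spread was larger than counting. At least 1.5-fold higher were 41 regions (1.31%) and at least 1.5-fold lower 96 (3.06%), and of the 96, 32 were at most 2 kb wide. Among the 2966 wide regions the numbers were 21 and 37. The shNT pair had 19 (0.612%) and 52 (1.68%) of 3103.

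This split depends on the scale. When the lists were scaled to equal reads in the 69 regions at most 2 kb wide in both, which went up 1.54-fold in reads, the median density was 1.31-fold higher with OHT, with 574 regions at least 1.5-fold higher and 44 lower. Higher ones were then 92.9% of those past 1.5-fold, against 29.9% on the median scale. Density changes below are therefore relative to the median region.

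**Figure D4:**
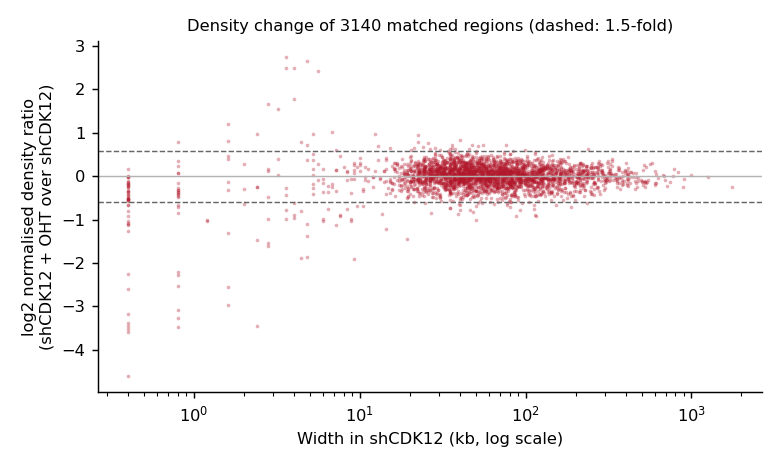
The log2 ratio of normalised density, with OHT over without, against width without OHT in kb on a log axis, 1 point per matched region of silenced cells (n = 3140), with 1.5-fold marked by dashed lines. Regions above 10 kb lie mostly between the lines, and narrow ones scatter from -4.61 to 2.74.

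Relative density was higher with OHT in sparse regions and lower in dense ones. Ranked by density in untreated shNT cells, the sparsest group had a median log2 ratio of 0.06 (interval 0.04 to 0.07) and the densest -0.12 (-0.15 to -0.10). The groups in between had 0.04 and -0.04. The densest group also held 56 of the 83 regions at least 1.5-fold lower and 18 of the 32 at least 1.5-fold higher. The shNT pair, ranked by density in shCDK12 without OHT, had medians of -0.03, 0.01, 0.01 and -0.003 from the sparsest to the densest group. Regions of up to 2 kb had a median of -0.46. Across the 2143 regions found in all 4 lists the density ratios of the silenced and shNT pairs correlated with r = 0.24 and rho = 0.43.

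Among regions at least 10 kb wide with at least 100 reads in both lists, the highest ratio was at chr3:105069201-105091600, where 256 reads over 22.4 kb became 1558 over 35.2 kb, a normalised density 1.94 times that without OHT (counting interval 1.70 to 2.22). The next were chr3:51394401-51434800 (1.79), chr21:32709201-32731600 (1.72) and chr17:36296801-36322400 (1.71). The first 3 of these 4 were also wider with OHT and had 1 counterpart in each shNT list.

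The lowest ratio was 0.37 (0.34 to 0.40) at chr12:69650401-69669600, where 800 reads over 19.2 kb became 1237 over 40.4 kb. The right border had moved 21.2 kb, and the raw density went from 41.7 to 30.6 reads per kb, one of the few that were lower before scaling. The region chr2:150587201-150601600 had a ratio of 0.43 and was 3.64 times as wide with OHT, and its raw density went from 55.1 to 47.0 reads per kb. At chr1:44081601-44132000 the ratio was 0.495, with a raw density of 39.3 without and 38.9 reads per kb with OHT, and the shNT lists held there 1 region of 498.8 and 556.8 kb. The fourth, chr2:101324401-101439600 (0.53), was 1.23 times as wide. All of these regions were wider and held more reads with OHT. Each density used the width in its own list, so a border that takes in sparser sequence lowers the density. Across the 3140 matched regions the log2 ratios of width and of normalised density correlated with r = -0.44 and rho = -0.11.

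Over all widths, 16 matched regions held over 1 read per bp without OHT, with reads that went from 0.97-fold to 2.50-fold. The narrow region chr1:564401-570400 had 18258 and 17725 reads and chr5:134259201-134264000 had 10340 and 10370. Equal reads put these at log2 ratios of -1.04 and -1.11 on the normalised scale.

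Regions present in 1 list only were more numerous with OHT. Those with no overlap in the other list numbered 726 with OHT (15.5% of that list) and 298 without (6.21%). With the same minimum score in both lists the numbers were 1260 and 71. That floor removed regions from the list without OHT alone (4799 to 3811), so the first number could only rise and the second only fall. The 726 covered 37.8 Mb, held 3.08% of the reads and were narrower (median 47.6 kb) than the rest of the list (80.8 kb). Their median normalised density was 0.65 and 714 of them (98.3%) lay below 1. The 5th percentile of the other regions was 0.65, so regions present only with OHT sat at the sparse end of the list. The 298 were narrower (median 24.0 kb), and 63 of them were at most 2 kb wide. Their median normalised density was 0.71, against 0.98 in the rest of their list. The shNT pair had 966 (21.2%) and 57 (1.5%). Its 966 were narrow and sparse too, with medians of 31.6 kb and 0.56 against 78.0 kb and 1.01 in the rest of that list.

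Where the 726 lay was described by their neighbours. The nearest region without OHT was a median of 96.8 kb away. It was within 25 kb for 119 of them and within 100 kb for 371 (51.1%), and over 1 Mb away for 54. In shNT cells 82 of the 726 (11.3%, interval 9.19 to 13.8) overlapped a region without OHT and 267 (36.8%, 33.3 to 40.3) a region with OHT, while 456 (62.8%) overlapped neither. Of the regions in the silenced list with OHT that were not list-only, 84.3% and 94.0% overlapped those lists. Those regions had to overlap the silenced list without OHT, and they were wider (median 80.8 kb against 47.6 kb) and denser (1.03 against 0.65). The 2 sets are therefore not alike, and their shares differ in part through how they were chosen. Of the 966 present only with OHT in the shNT pair, 227 (23.5%) overlapped neither silenced list. The 298 present only without OHT overlapped untreated shNT regions in 137 cases (46.0%).

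The widest region present only with OHT and the widest present only without it lay on chromosomes 1 and 15. The second, chr1:7476401-7645600, held 4217 reads over 169.2 kb, and shNT cells had a 48.4 kb region there without and a 138.0 kb one with OHT. The region chr6:27110401-27275200 (164.8 kb, 4461 reads) was 251.2 kb from the nearest region without OHT, with a 98.8 kb region in shNT with OHT and none in shNT. The region chr22:28609601-28762800 (153.2 kb, 3271 reads) likewise had a counterpart in shNT with OHT alone, of 36.4 kb. Of those present only without OHT, the widest was chr15:39459201-39598000 (138.8 kb, 2305 reads). It lay inside shNT regions of 237.6 kb without and 231.2 kb with OHT. The next, chr12:104750401-104856000 (105.6 kb, 1482 reads), matched shNT regions of 107.6 and 108.4 kb. The regions chr20:56545201-56614800 and chr20:56649601-56716000 (69.6 and 66.4 kb) both lay inside a single shNT region of 291.6 kb, which was 302.8 kb with OHT.

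Chromosomes differed in how much was added and in how. Covered length was higher with OHT on all 22 autosomes, from 1.06-fold on chromosome 19 to 1.44-fold on chromosome 13. The same chromosomes were the extremes in the shNT pair, with 1.07-fold and 1.28-fold. Chromosome 19 is the most gene-dense human chromosome and chromosome 13 among the least. The share of wider regions ran from 54.2% of 168 on chromosome 17 (interval 46.6 to 61.5) to 85.4% of 130 on chromosome 8 (78.3 to 90.4), with 79.8% on chromosome 6. The intervals of chromosomes 6 and 8 lay above the 68.3% of all autosomes and that of chromosome 17 below it, while those of all other autosomes included it. The median log2 width ratio was 0.02 on chromosome 17 and 0.20 on chromosomes 6 and 8.

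**Figure D5:**
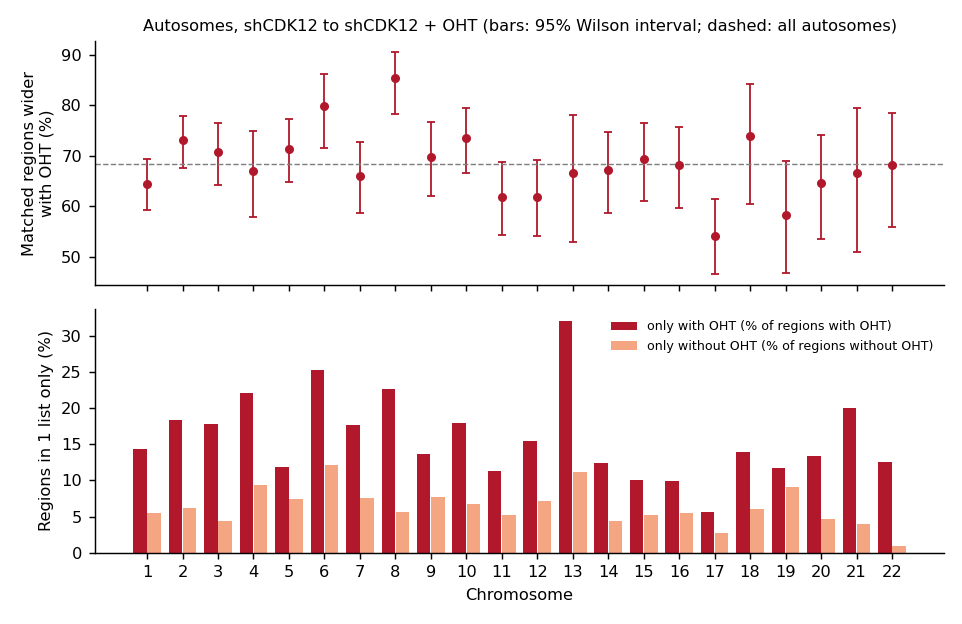
Upper panel, percentage of matched regions that were wider with OHT on each autosome of silenced cells, with 95% Wilson intervals and the value of all autosomes dashed. Lower panel, percentage of regions found only with OHT (red) or only without (light) on each autosome. Chromosome 8 is highest above (85.4%) and chromosome 17 lowest (54.2%), while chromosome 13 is highest below (32.1%).

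Fusion and new regions were spread over chromosomes in different ways. Gaps closed most often on chromosomes 22 (24.8%), 20 (23.5%) and 19 (19.6%) and least on chromosome 13, with 2 of 62 (3.23%). In the shNT pair the shares on these chromosomes were 15.1%, 12.0%, 12.0% and 4.08%, with the highest on chromosome 22 too and the lowest on chromosome 5 (2.34%). The shares by chromosome were not split by gap length. Regions present only with OHT made up 32.1% of the list on chromosome 13, 25.3% on chromosome 6, 22.7% on chromosome 8 and 22.1% on chromosome 4, and 5.60% on chromosome 17. In the shNT pair regions present only with OHT made up 40.2% on chromosome 13, 29.2% on chromosome 4 and 23.5% on chromosome 6, so chromosome 13 was highest in both pairs. Toward the ends that the lists reached the difference in width was smaller: within 5 Mb of them 60.8% of 362 regions were wider, against 70.0% of 2026 regions over 20 Mb away. The shares of the shNT pair were 60.5% and 43.6%, so near the ends the pairs had like shares and far from them they did not.

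In windows of 5 Mb the gain was widespread. Of 541 windows, covered length was higher with OHT in 476, lower in 50 and equal in 15, with a median gain of 116.0 kb, against 54.4 kb in the shNT pair. The largest gain was at chr6:25000001-30000000, from 0.56 to 1.72 Mb, where the shNT lists had 0.47 and 0.99 Mb. It was followed by chr12:1-5000000, from 2.07 to 3.22 Mb, against 1.63 and 1.98 Mb in shNT, and chr2:70000001-75000000, from 2.66 to 3.43 Mb. Losses were smaller. The largest was 0.10 Mb at chr11:130000001-135000000, from 0.44 to 0.34 Mb, then chr2:235000001-240000000, from 1.63 to 1.53 Mb, and chr4:25000001-30000000, where the only 0.06 Mb was gone.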

How the data were processed

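DNA that had taken up EdU was pulled down through a biotin link and sequenced, for 4 conditions. The authors deposited 1 merged region list per condition, each with a read count and a score per region and made with BWA (version 0.6.2), SAMtools and SICER per the submitters' processing notes, which list hg19; filters, window and gap settings are not given in the sources used here. The deposited counts are raw reads inside regions and not library totals. Single replicates were not analysed here. Coordinates were written 1-based.

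Regions were compared with Python 3.11.15, numpy 2.4.6, pandas 2.3.3 and scipy 1.17.1. Regions overlapping by at least 1 bp were paired, and a density was the count over the width, divided by the list's median over matched regions. Intervals are 95% Wilson intervals for shares, exact binomial intervals for medians and exact intervals for the ratio of 2 counts. Functions were tested on simulated lists with known changes. No p-value was computed. The regions named were the 4 most extreme of each kind and the windows of 5 Mb with the 3 largest gains and losses. The members and lists were chosen with earlier results of these data known. Alternatives were a 50% reciprocal overlap, a common minimum score, joining neighbours up to 10 kb apart, a minimum width of 10 kb, chromosome X, other scalings, a fusion overlap of 2 kb, a 10 kb margin for list-only regions and shifts of at least 2 kb. No hg19 genome or annotation was used here, so regions carry no gene names or sequences.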

Additional observations from a re-analysis of the deposited data

Results flagged for a closer look

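The number and the width of autosomal regions went opposite ways with OHT in the silenced and shNT pairs. The number of regions changed by -123 in silenced cells and by 760 in shNT cells, and the median width by 15.2 kb and by -13.6 kb. The difference between the pairs was not tested, since each condition had 1 list. With the same minimum score in both lists of a pair, the silenced lists held 3811 and 4676 regions with median widths of 72.4 and 71.6 kb. The shNT lists then held 3796 and 4189 with 74.8 and 66.8 kb, so the directions were alike. That floor removed regions only from shCDK12 without OHT (4799 to 3811) and from shNT with OHT (4556 to 4189). The change in number could thus only rise in silenced cells and only fall in shNT cells. These values therefore cannot show whether the opposite directions hold. At that floor 66.2% of matched regions were wider in silenced cells and 48.1% in shNT cells.

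Chromosomes outside the comparison also held signal. Chromosome M had 1576695 reads without and 1698827 with OHT in silenced cells, 1.08-fold, against 2.16-fold inside autosomal regions. Chromosome X had 86 regions without and 73 with OHT, of which 54 were matched 1 to 1 and 31 of these were wider, with a median log2 width ratio of 0.06.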

How the results depend on the processing

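The median log2 width ratio stayed above 0, and covered length and the number of list-only regions stayed larger with OHT, under each alternative run for them. For covered length and list-only regions the common minimum score could not have given the reverse, because it removed regions from the list without OHT alone. Of 62 values 42 stayed within the interval of the reported value, or for counts within 1.5 times. With the same minimum score in both lists, the share wider was 66.2%, the median log2 width ratio 0.0902, the left and right borders further out in 56.6% and 55.9%, closed gaps 12.9%, and regions only with and only without OHT 1260 and 71. Among regions at least 10 kb wide, 70.6% were wider, borders were further out in 61.2% and 59.96%, and 23 and 41 regions were at least 1.5-fold denser and sparser. Joining neighbours up to 10 kb apart gave 12.4% of gaps closed. Counting only shifts of at least 2 kb gave 48.2% and 46.6%. A 50% reciprocal overlap gave 27 denser regions. Scaling by narrow regions gave 574 denser and 44 sparser, and reads in place of density 451 and 181. The order of denser and sparser counts turned under these 2 scalings, so a direction of density change holds only relative to the median region. No paired analysis was possible because each condition was 1 merged list and no result comes from a test, and for the same reason no replicate could be left out. Reads inside regions differed 2.16-fold between the lists, and the part of that difference in the results was not tested.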
